A study of Mus musculus with 8 samples.

Results

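The step from 3 h to 6 h of bisphenol A (BPA) was examined in TTE3, a mouse Sertoli cell line made from transgenic mice in which the large T antigen of simian virus 40 works only at the permissive temperature. Affymetrix 430A arrays had been hybridized with total RNA at 4 times of 0.2 mM BPA, namely 0, 3, 6 and 12 h, with 2 arrays at each time. The comparison uses the 4 arrays of 3 h and 6 h out of 8 in all, and its features are the 12393 genes with a probe set of a single symbol among 22690 probe sets. Each gene is read by its brightest probe set over the 8 arrays; 8675 genes passed a filter on low signals and were tested, and 3718 were not. All groups are the same immortalised line, the 0 h cells included, so there is no primary tissue in the comparison. Whether the 2 arrays of a time are separate cultures is not stated, so p-values measure only the spread between these arrays, which may be technical. BPA and time in culture cannot be told apart, since no arrays without BPA at 3 h or 6 h were analysed here. Less RNA per cell and fewer cells that express a gene cannot be told apart in such bulk RNA either.

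Sertoli cells are the somatic cells that nurse germ cells in the seminiferous tubule, and BPA is a plastics monomer with weak estrogenic activity. Cells that meet a stimulus usually switch on immediate early genes first. Many of these encode transcription factors or inhibitors of the signalling that induced them, and their unstable transcripts often decline while a second wave of genes rises. A separate programme, the integrated stress response, acts through the transcription factor ATF4, whose translation increases when the initiation factor eIF2 is phosphorylated. ATF4 and its partner CHOP (Ddit3) raise genes of amino acid synthesis, amino acid uptake and redox balance by binding composite C/EBP-ATF elements in promoters and introns.

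The 8 arrays were alike in scale: median signals lay between 150.8 and 170.1, and the mean without the extremes was 500.2 on every array. The 2 arrays of 6 h correlated with r = 0.974 over the tested genes (log2 scale), and arrays of 3 h with arrays of 6 h at 0.968 to 0.975, the highest of which exceeded the 6 h pair. The 3′ to 5′ signal ratio of Gapdh was 0.713 and 0.775 at 3 h and 0.796 and 0.779 at 6 h. Of 22 Sertoli markers measured, 12 were bright enough to be tested. Clu, Ctsl, Gja1 and Kitl were bright, with signals of 1211 or more on every array, and Gata4 read 532 to 924. The transcription factors Sox9 and Wt1 were dim, at 26.2 to 187.3 and 96.7 to 261.9 over the 8 arrays. Amh, Fshr, Dhh, Cldn11, Gdnf and Dmrt1, which define Sertoli cells, stayed at or below a signal of 75.1 on every array, so the label is borne by part of the marker list. No Sertoli marker was called between 3 h and 6 h (median log2 change -0.14). Markers of Leydig and germ cells were dim except Star (267 to 491).

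Between 3 h and 6 h, 97 genes were called at an adjusted p under 0.05 (limma, Benjamini-Hochberg), which is 1.12% of those tested. Of these, 49 genes rose (0.565%) and 48 fell (0.553%), and 25 changed at least 2-fold (0.288%), 14 upwards and 11 downwards. The falling side was led by Ccn2, Sgk1, Dusp10 and Adamts1, and the rising side by Sh3gl3, Grhl2, Socs2 and Slc7a11 at low signals and by Cxcl10, Trib3, Asns and Ero1a at higher ones. Signals below are the deposited linear values of replicates 1 and 2, and errors of log2 changes are standard errors (SE). For each of the 97 genes both 6 h arrays lay beyond both 3 h arrays. The same held for many genes that were not called: both 6 h arrays were above both 3 h arrays for 22.9% of genes tested, and below for 20%. The step was small beside its neighbours in time, as 12.1% of genes were called at 3 h against 0 h (8.55% higher, 3.53% lower) and 4.77% at 12 h against 6 h. The median log2 change over all genes tested was 0.01, and 1244 genes had an unadjusted p under 0.05.

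**Figure D1:**
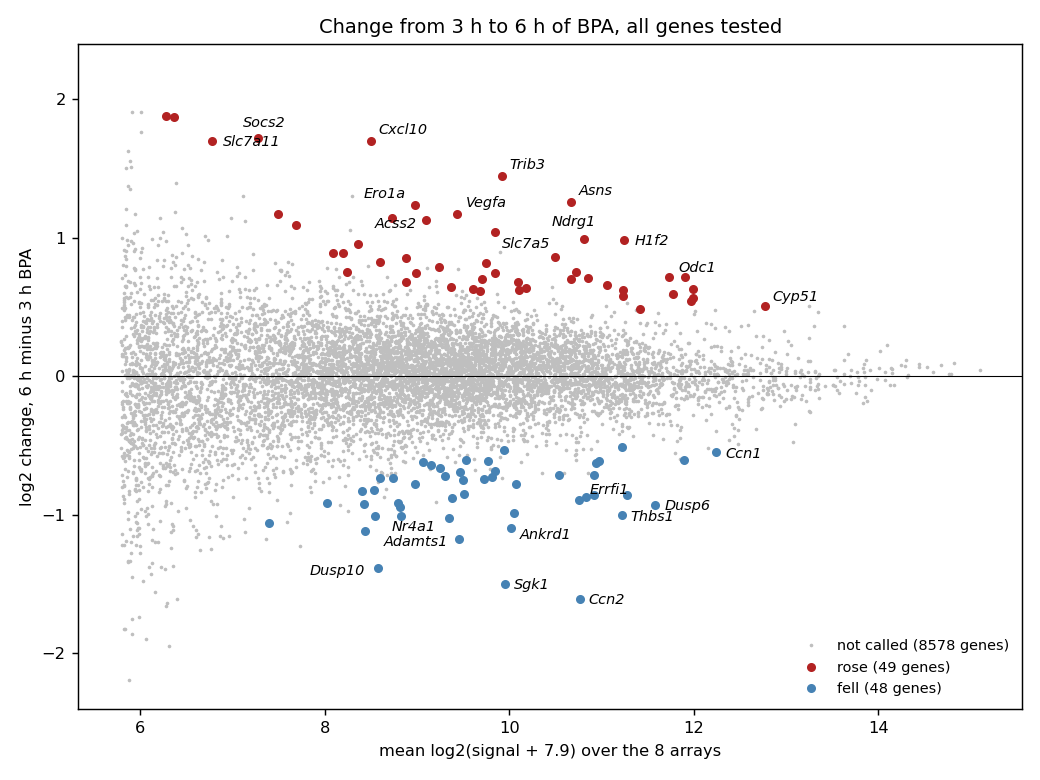
Log2 change from 3 h to 6 h of BPA (y axis) against mean log2(signal + 7.9) over the 8 arrays (x axis) for 8675 genes. Red points are the 49 genes that rose, blue points the 48 that fell and grey points the 8578 not called; the grey band widens at low signals, where even larger changes were not called.

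The number of calls depends on single arrays and on the variance model. It was 30 without 3 h replicate 1, 39 without 3 h replicate 2, 59 without 6 h replicate 1, 129 without 6 h replicate 2 and 61 without either 0 h array, and only 6 genes were called when the variance was not allowed to depend on signal. Of the 97 genes, 18 kept the call in every alternative but that last one: Ccn2, Dusp10, Trib3, Asns, Sgk1, Adamts1, Ankrd1, Nr4a1, Thbs1, Dusp6, Errfi1, Rhob, Cxcl10, Ero1a, Vegfa, Acss2, Slc7a5 and Ndrg1. The first 4 of them kept it in all 19 alternatives, that one included. Not every alternative changed their values, however. Ccn2 had the same log2 change (-1.60) under both other choices of probe set given below. Asns and Dusp10 had the same one with probe sets that can bind several transcripts left out. The arrays whose removal, one at a time, ended a call are named below with each group of genes. The choice of probe set mattered too. When a gene was read by its mean probe set value, 33 of the 97 lost the call. With probe sets that can bind several transcripts left out where the gene has another, 17 lost it. The call was lost in both by 15 genes and in either by 35. These 35 were Cd24a, Col1a1, Cyp51, Fdft1, Gadd45b, Grhl2, Gstm1, H1f2, Hbp1, Hint3, Ier5, Klf5, Klf9, Lss, Mbtd1, Mcl1, Mettl7a1, Mfap3, Ndufaf4, Odc1, Pag1, Pck2, Pim3, Plagl1, Purb, Sesn1, Slc1a4, Slc20a1, Slc7a11, Socs3, Spry2, Srfbp1, Tnrc6b, Tsc22d3 and Zfp346. Hint3, Ier5, Slc7a11 and Tnrc6b kept the same probe set when those that can bind several transcripts were left out. Their values did not change there, and the calls ended through the variance and the p adjustment, which draw on all genes. Of the 97 genes, 32 were read by a probe set that can bind several transcripts. Trib3, Vegfa, Odc1 and Slc20a1 are among them, and not each is marked below.

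**Figure D2:**
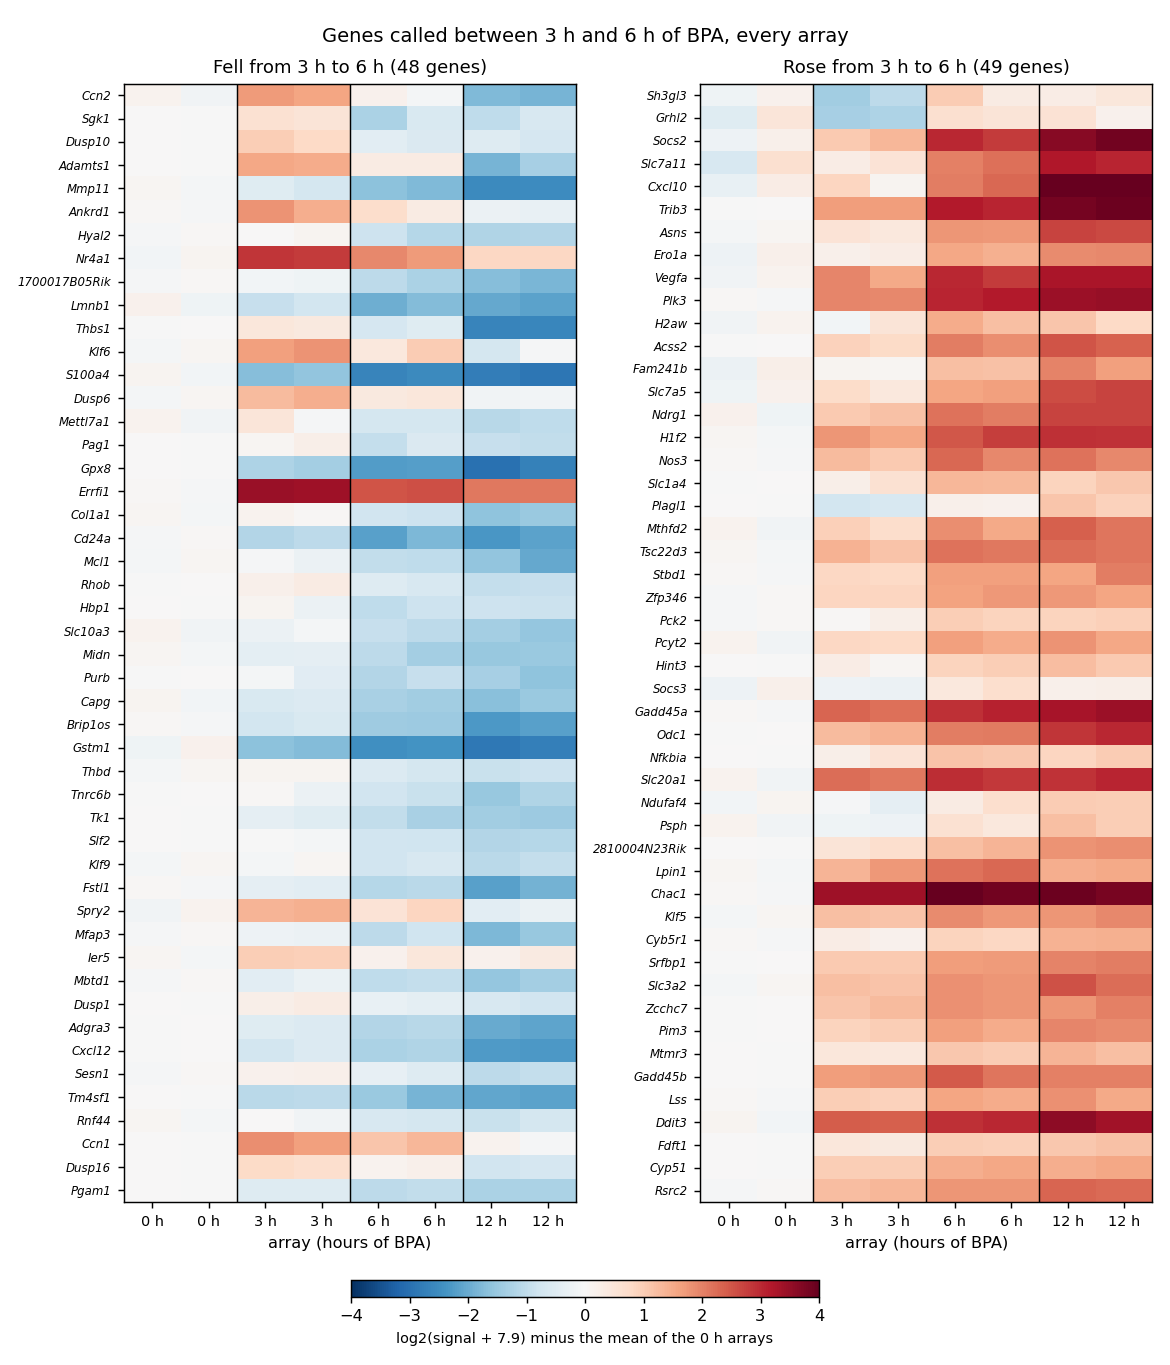
Level of each called gene on each array (columns, by hours of BPA), as log2(signal + 7.9) minus the mean of the 0 h arrays, for the 48 genes that fell (left) and the 49 that rose (right), ordered by size of change. Among the genes that fell, 13 were called higher at 3 h against 0 h (red cells, such as Nr4a1 and Errfi1). Another 13 were called lower there (blue cells, such as S100a4 and Gpx8), and cells of genes without such a call can be tinted as well.

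A first set of the genes that fell had risen before. Adamts1, Ankrd1, Ccn1, Ccn2, Dusp6, Dusp10, Dusp16, Errfi1, Ier5, Klf6, Nr4a1, Spry2 and Thbs1 were called higher at 3 h against 0 h and lower at 6 h against 3 h, which is 13 of 742 early risers (1.75%) and 13 of 48 fallers (27.1%). The 3 h arrays enter both comparisons with opposite sign, so a chance high reading at 3 h favours such a pattern, and the count is a description. At 6 h, 7 of the 13 were still called above 0 h (Ankrd1, Ccn1, Dusp6, Errfi1, Klf6, Nr4a1 and Spry2), Dusp10 and Thbs1 were called below it, and Adamts1, Ccn2, Dusp16 and Ier5 were not called either way; over all genes tested, 16.8% were called higher and 9.73% lower at 6 h against 0 h. None of the 13 was called higher at 12 h against 6 h.

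The first group among these losses encodes proteins that cells secrete into the matrix or that act downstream of YAP and TEAD, the coactivator and DNA-binding factors that respond to cell tension. Ccn2, a matricellular protein also known as CTGF, read 5756 and 5343 at 3 h and 1977 and 1673 at 6 h (probe set 1416953_at). The signals at 0 h were 1959 and 1596, so the 2 arrays of 6 h stood back at that level and far below both 3 h arrays (log2 change -1.60 ± 0.13 SE, adjusted p = 6.18e-05). By then 98.7% of the 3 h rise in signal had been lost, and at 12 h Ccn2 read 519 and 484. Ankrd1, a nuclear ankyrin repeat protein and classic YAP target, read 2586 and 2029.6 at 3 h and 1212 and 941 at 6 h (log2 change -1.10 ± 0.15 SE, adjusted p = 0.00285). Ccn1, the sister of Ccn2 known as CYR61, went from 10503 and 9046 to 6173 and 7181 (log2 change -0.55 ± 0.12 SE, adjusted p = 0.0445). It is read by a probe set that can bind several transcripts. The median log2 change of 14 YAP and TEAD targets tested was -0.21. Of the 14, Ccn2, Ankrd1 and Ccn1 fell (against 0.553% of all genes tested), Gadd45b rose (against 0.565%) and 10 were not called. Lats2 (-0.67, adjusted p = 0.247), Crim1 (-0.35, adjusted p = 0.288), Axl (-0.07, adjusted p = 0.819) and Amotl2 (-0.03, adjusted p = 0.946) were among those not called, and were chosen after their values were seen. The list had 2 to 3 falling members with one 3 h or 6 h array left out. The calls of Ccn2 and Ankrd1 held with each of the 8 arrays left out in turn. Ccn1 lost the call without either 0 h array, either 3 h array or 6 h replicate 1 (adjusted p between 0.0966 and 0.315).

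Thbs1, a matricellular protein that activates latent TGF-beta, read 5282 and 5078 at 3 h and 2419 and 2755 at 6 h after 3769 and 3925 at 0 h (log2 change -1.002 ± 0.11 SE, adjusted p = 0.000835). Its loss went on to 616 and 617 at 12 h. Adamts1, a secreted protease of the proteoglycans versican and aggrecan, read 1939.9 and 1862 at 3 h and 846 and 832 at 6 h (log2 change -1.17 ± 0.16 SE, adjusted p = 0.00258), against 667 and 664 at 0 h and 179.6 and 261 at 12 h. Both genes thus had 6 h arrays well clear of the 3 h arrays and ended the series below their starting level. In the list of extracellular matrix genes and proteases, 4 of 45 members fell (against 0.553% of all genes tested) and none rose (against 0.565%). The median log2 change of the list was -0.22. Both 6 h arrays lay below both 3 h arrays for 23 members (51.1%, against 20% of all genes tested). This list was chosen with earlier results of these data known, so the counts are no independent evidence of its direction. The other 2 that fell were Mmp11 (stromelysin-3), which read 564 and 484 at 3 h and 248 and 226 at 6 h (log2 change -1.12 ± 0.16 SE, adjusted p = 0.0034), and Col1a1, the alpha-1 chain of type I collagen. Col1a1 read 1068 and 1001 at 3 h and 572 and 546 at 6 h (log2 change -0.88 ± 0.13 SE, adjusted p = 0.00492), but the mean over its probe sets was -0.44. Col3a1 (-0.55, adjusted p = 0.0569), Col4a1 (-0.43, adjusted p = 0.0802), Plat (-0.47, adjusted p = 0.095) and Fn1 (0.05, adjusted p = 0.902), chosen after their values were seen, were not called. Markers of peritubular cells and fibroblasts, several of them collagen genes that are also in the matrix list, moved alongside: their summed signal over 9 measured genes was 12479 to 12727 at 3 h and 9315 to 9681 at 6 h, with 1 of 7 tested members (Col1a1) called lower. Most of that sum came from Dcn, which read 5941 and 6084 at 3 h and 5306 and 4892 at 6 h (-0.24, adjusted p = 0.356), and Col3a1, which read 5304 and 4824 at 3 h and 3382 and 3519.7 at 6 h, both strong on every array. Lum and Myh11 stayed at or below 52.9. The part of such cells in the matrix result was not tested. Between 2 and 4 members of the matrix list fell with one 3 h or 6 h array left out. The calls of Thbs1 and Adamts1 held with each of the 8 arrays left out in turn. Mmp11 and Col1a1 lost the call without 3 h replicate 1 (adjusted p between 0.0623 and 0.0724).

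The second group among the early losses restrains kinase signalling. Dusp10, a phosphatase of the kinases JNK and p38, read 773 and 682 at 3 h and 289 and 259 at 6 h (probe set 1417164_at). Those 6 h values lie below the 392 and 385 of 0 h as well (log2 change -1.38 ± 0.15 SE, adjusted p = 0.000892). Dusp6, the cytoplasmic phosphatase of ERK and a readout of ERK activity, read 5518 and 6256 at 3 h and 3019 and 3146 at 6 h after 2159 and 2456 at 0 h (log2 change -0.93 ± 0.11 SE, adjusted p = 0.00163). Errfi1 (MIG6), which binds and inhibits the EGF receptor, read 4681 and 4496 at 3 h and 2425 and 2514 at 6 h (log2 change -0.89 ± 0.10 SE, adjusted p = 0.00153). Its 4 later arrays remained far above the 428 and 408 of 0 h, and at 12 h it read 1829.7 and 1811, and 50.8% of the rise in signal had been lost by 6 h. Spry2, a Sprouty protein that dampens receptor tyrosine kinase to RAS signalling, read 1338 and 1385 at 3 h and 746 and 943 at 6 h (log2 change -0.69 ± 0.15 SE, adjusted p = 0.0445), and Dusp16, another JNK phosphatase, read 1601 and 1505 at 3 h and 1055 and 1088 at 6 h (log2 change -0.53 ± 0.11 SE, adjusted p = 0.043); both lie outside the naming rule and are named because they completed the 13. Dusp1, the nuclear phosphatase of p38, JNK and ERK, read 2634 and 2813 at 3 h and 1819 and 1709.6 at 6 h (log2 change -0.62 ± 0.11 SE, adjusted p = 0.0128) without a call at 3 h against 0 h. The calls of Dusp10, Dusp6 and Errfi1 held with each of the 8 arrays left out in turn. Spry2 lost the call without either 0 h array, either 3 h array or 6 h replicate 1 (adjusted p between 0.0642 and 0.221). Dusp16 lost the call without either 0 h array, either 3 h array or either 6 h array (adjusted p between 0.0664 and 0.273). Dusp1 lost the call without either 3 h array (adjusted p between 0.0832 and 0.143).

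In the list of 23 signalling feedback inhibitors, these 6 fell and 3 rose, against 0.553% and 0.565% of all genes tested. The median log2 change of the list was 0.02. The 3 that rose act on cytokine and NF-kB signalling. Socs2, a suppressor of growth hormone and STAT5 signalling, read 73.5 and 92.1 at 3 h and 312 and 269.5 at 6 h (log2 change 1.72 ± 0.25 SE, adjusted p = 0.0038), and went on to 488 and 569 at 12 h. Socs3, which blocks gp130 and JAK signalling, read 397 and 389 at 3 h and 611 and 723 at 6 h (log2 change 0.75 ± 0.16 SE, adjusted p = 0.0382); the mean over its probe sets was 0.45, and the one used can bind several transcripts. Nfkbia, the inhibitor IkB-alpha that NF-kB itself induces, read 2960.2 and 3635 at 3 h and 5511 and 5273 at 6 h (log2 change 0.72 ± 0.12 SE, adjusted p = 0.01). Tnfaip3 (0.03, adjusted p = 0.969), Spry1 (0.13, adjusted p = 0.783) and Dusp14 (0.02, adjusted p = 0.971) of the list were not called and were chosen after their values were seen. Leaving out one 3 h or 6 h array left 3 to 5 members that fell and 1 to 2 that rose. The call of Socs2 held with each of the 8 arrays left out in turn. Socs3 lost the call without either 3 h array or either 6 h array (adjusted p between 0.0622 and 0.19). Nfkbia lost the call without 3 h replicate 1 (adjusted p = 0.134).

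**Figure D3:**
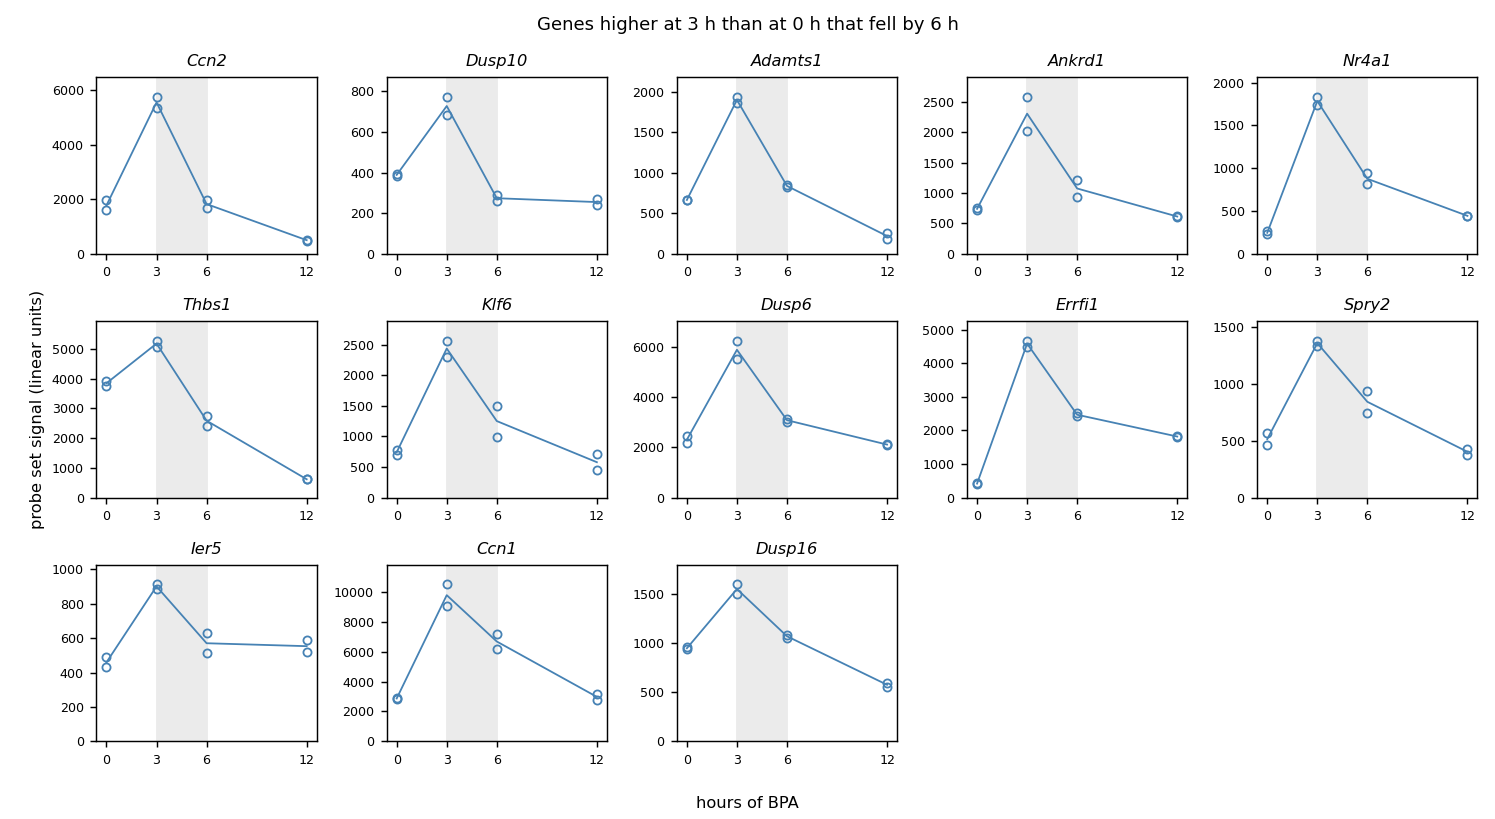
Probe set signal (y axes, linear, starting at 0) against hours of BPA (x axes) for the 13 genes called higher at 3 h than at 0 h and lower at 6 h than at 3 h. Circles are single arrays, lines join the means and the grey band marks the step; Ccn2 returned to its 0 h level by 6 h, whereas Errfi1 and Nr4a1 kept part of the rise.

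Of 24 immediate early genes tested, most of them transcription factors, 3 fell, none rose and 21 were not called. Over all genes tested, 0.553% fell and 0.565% rose. The median log2 change of the 24 was -0.03. Nr4a1 (NUR77), an orphan nuclear receptor, read 1834 and 1734 at 3 h and 943 and 810.5 at 6 h (log2 change -1.02 ± 0.13 SE, adjusted p = 0.00248), still above the 227 and 265 of 0 h. Klf6, a zinc finger factor, read 2305 and 2567 at 3 h and 997 and 1505 at 6 h (log2 change -0.98 ± 0.21 SE, adjusted p = 0.0382), with the 2 arrays of 6 h well apart. Ier5, an immediate early regulator of heat shock factor activity, read 914 and 889 at 3 h and 514 and 628 at 6 h (log2 change -0.66 ± 0.14 SE, adjusted p = 0.0468). Fos, a subunit of the AP-1 dimer, read 2440.4 and 2596 at 3 h and 2881 and 2674 at 6 h after 184 and 163 at 0 h, with both 6 h arrays slightly above the 3 h arrays and no call (log2 change 0.14 ± 0.12 SE, adjusted p = 0.647). Egr1, a zinc finger factor downstream of ERK and SRF, read 14135 and 13968 at 3 h and 11507 and 9475 at 6 h (log2 change -0.43 ± 0.15 SE, adjusted p = 0.201), and its 6 h arrays lay below the 3 h arrays without a call. Egr2 (-0.80, adjusted p = 0.262) and Btg2 (-0.52, adjusted p = 0.0581) were also lower without a call. Atf3 (0.31, adjusted p = 0.22), Fosl2 (0.46, adjusted p = 0.156), Maff (0.37, adjusted p = 0.223), Junb (0.32, adjusted p = 0.565) and Klf10 (0.27, adjusted p = 0.375) had positive values, and Jun (-0.25, adjusted p = 0.375) and Myc (-0.25, adjusted p = 0.28) negative ones, none of them called. Ier2 (-0.21, adjusted p = 0.567), Ier3 (-0.35, adjusted p = 0.221), Jund (0.14, adjusted p = 0.586), Fosl1 (0.08, adjusted p = 0.86), Fosb (0.14, adjusted p = 0.919), Egr3 (0.06, adjusted p = 0.956), Nr4a2 (-0.01, adjusted p = 0.995), Klf2 (0.02, adjusted p = 0.984), Klf4 (-0.06, adjusted p = 0.922) and Srf (-0.05, adjusted p = 0.923) make up the rest. From 1 to 3 of the 24 fell when a 3 h or 6 h array was left out. The call of Nr4a1 held with each of the 8 arrays left out in turn. Klf6 and Ier5 lost the call without either 0 h array, either 3 h array or 6 h replicate 1 (adjusted p between 0.074 and 0.232).

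Promoter sequences of the called genes were searched for known elements. The 250 bases before the RefSeq start site (GRCm38.p6) were at hand for 38 of the 48 genes that fell and 39 of the 49 that rose. The full cAMP response element TGACGTCA, the site of CREB and ATF factors, is its own reverse complement and was present in 3 of the 38 (7.89%; Dusp1, Errfi1 and Purb) and in none of the 39, against 2.99% of 7098 tested genes with a promoter and 1.55% of 32851 promoters in the table. Dusp1 and Errfi1 are shown because they are the feedback inhibitors among them; the sequences run 5′ to 3′ in the direction of the gene, up to the base before the start site, and capitals mark the element. Dusp1 lies at chr17:26508473-26508722 (minus strand) and Errfi1 at chr4:150854820-150855069 (plus strand).
Dusp1: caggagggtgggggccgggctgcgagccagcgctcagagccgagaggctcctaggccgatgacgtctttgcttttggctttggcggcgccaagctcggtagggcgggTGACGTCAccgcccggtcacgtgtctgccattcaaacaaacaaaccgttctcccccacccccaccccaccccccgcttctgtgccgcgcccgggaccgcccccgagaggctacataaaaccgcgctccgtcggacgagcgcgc
Errfi1: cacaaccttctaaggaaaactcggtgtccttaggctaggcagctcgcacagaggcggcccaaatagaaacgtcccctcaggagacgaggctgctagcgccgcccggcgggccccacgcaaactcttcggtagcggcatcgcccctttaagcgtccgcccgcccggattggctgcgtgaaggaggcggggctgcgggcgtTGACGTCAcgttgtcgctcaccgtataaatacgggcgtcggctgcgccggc
In Errfi1 the element begins 51 bases before the start site, close to a TATA-like stretch, and in Dusp1 it begins 143 bases before it. The core of the TEAD site, CATTCC, searched on both strands, was present in 10 of 38 fallers (26.3%), 4 of 39 risers (10.3%), 12.8% of tested genes and 12.6% of all promoters; Ankrd1, Ccn1, Errfi1, Mcl1, Nr4a1 and Sgk1 were among the 10. The AP-1 letters TGANTCA were in 1 faller and 2 risers (5.75% of tested genes). A CArG box, the SRF site, was found in none of the fallers, in 1 riser (Stbd1) and in 1.47% of tested genes. The letters TCACCCCAC, core of the sterol response element, were in no called gene and in 0.662% of tested genes. Such matches are letters in a window, and no binding was measured.

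A further set of 22 falling genes had not been called at 3 h against 0 h. Sgk1, a kinase induced by serum and glucocorticoids that regulates ion transport, had the largest fall after Ccn2: it read 1841 and 1743 at 3 h and 502 and 789.8 at 6 h (probe set 1416041_at, log2 change -1.50 ± 0.18 SE, adjusted p = 0.00163). At 0 h Sgk1 read 1228 and 1200.3, so it fell below its start. Rhob, a short-lived small GTPase of endosomes and stress responses, read 3570.3 and 3848 at 3 h and 2138 and 1954 at 6 h (log2 change -0.86 ± 0.10 SE, adjusted p = 0.00163). Mcl1, a labile antiapoptotic BCL2 protein, read 3125 and 2737 at 3 h and 1630.2 and 1589.5 at 6 h (log2 change -0.86 ± 0.14 SE, adjusted p = 0.0112), through a probe set that can bind several transcripts; it was the only one of 24 BCL2 family and caspase genes called. Hbp1, an HMG-box repressor, read 1066 and 840.5 at 3 h and 489 and 558 at 6 h (log2 change -0.85 ± 0.14 SE, adjusted p = 0.0101), although the mean over its probe sets was -0.39. The 3 h and 6 h arrays of these genes did not overlap, and of the 4 only Mcl1 was called lower again at 12 h against 6 h. The calls of Sgk1 and Rhob held with each of the 8 arrays left out in turn. Mcl1 lost the call without 3 h replicate 1 (adjusted p = 0.131). Hbp1 lost the call without 3 h replicate 1 or 6 h replicate 1 (adjusted p between 0.0622 and 0.131).

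The same set held single members of several processes. Tk1, the thymidine kinase of S phase, read 1181 and 1064 at 3 h and 753 and 605 at 6 h (log2 change -0.72 ± 0.13 SE, adjusted p = 0.018). It was the only one of 50 replication and mitosis genes called, beside 1.12% of all genes tested. Sesn1, a sestrin that restrains TORC1, read 1214 and 1243 at 3 h and 856 and 750.5 at 6 h (log2 change -0.61 ± 0.12 SE, adjusted p = 0.0286), and its paralog Sesn2, an ATF4 target, was at -0.02, adjusted p = 0.986. Tnrc6b, a scaffold of microRNA silencing, read 646 and 533 at 3 h and 367 and 332 at 6 h (log2 change -0.74 ± 0.16 SE, adjusted p = 0.0444), the one call among 20 mRNA decay regulators (median -0.14). Purb, a single-strand DNA and RNA binding protein, read 1648 and 1261 at 3 h and 763 and 918 at 6 h (log2 change -0.78 ± 0.15 SE, adjusted p = 0.027), and its probe set mean was -0.35. Slf2 also fell (-0.72, adjusted p = 0.0115). The remaining falls without an early call lie outside the naming rule and are given because they were called: Hyal2 (a hyaluronidase, -1.06), 1700017B05Rik (-1.01), Mettl7a1 (-0.92), Pag1 (-0.91), Slc10a3 (-0.83), Midn (-0.82), Thbd (thrombomodulin, -0.74), Klf9 (a zinc finger factor, -0.71), Mfap3 (-0.68), Mbtd1 (-0.64) and Rnf44 (-0.60), each on the log2 scale. The probe set means of Mettl7a1 (-0.10), Pag1 (-0.51) and Klf9 (-0.24) were smaller by over 1.5 times. Tk1 lost the call without either 3 h array or 6 h replicate 2 (adjusted p between 0.0647 and 0.166). Sesn1 lost the call without either 0 h array, either 3 h array or 6 h replicate 2 (adjusted p between 0.0631 and 0.179). Tnrc6b lost the call without either 0 h array, either 3 h array or either 6 h array (adjusted p between 0.0872 and 0.3). Purb lost the call without either 0 h array, 3 h replicate 1 or 6 h replicate 1 (adjusted p between 0.0584 and 0.232). Slf2 lost the call without either 3 h array (adjusted p between 0.0834 and 0.13). Hyal2, Slc10a3, Thbd, Mbtd1 and Rnf44 lost the call without either 0 h array, either 3 h array or either 6 h array (adjusted p between 0.052 and 0.288). 1700017B05Rik lost the call without 3 h replicate 1 (adjusted p = 0.0734). Mettl7a1 lost the call without either 0 h array, 3 h replicate 1 or either 6 h array (adjusted p between 0.0601 and 0.299). Pag1 and Mfap3 lost the call without either 0 h array, either 3 h array or 6 h replicate 1 (adjusted p between 0.0642 and 0.216). Midn lost the call without either 0 h array, either 3 h array or 6 h replicate 2 (adjusted p between 0.0536 and 0.151). Klf9 lost the call without 3 h replicate 2 (adjusted p = 0.124).

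The last set of falling genes, 13 in number, was already called lower at 3 h against 0 h and fell further. Gstm1, a glutathione S-transferase, read 889 and 839.6 at 3 h and 507 and 522 at 6 h after 2501 and 3109 at 0 h (log2 change -0.74 ± 0.13 SE, adjusted p = 0.0163), and was the only one of 36 NRF2 and glutathione genes called; its probe set can bind the close Gstm paralogs. Cd24a, a glycosylphosphatidylinositol-anchored surface protein, read 2040.3 and 2213 at 3 h and 1018 and 1313 at 6 h (log2 change -0.87 ± 0.13 SE, adjusted p = 0.00575; -0.53, adjusted p = 0.0733 without probe sets that can bind several transcripts), and Tm4sf1, a tetraspanin-like membrane protein, read 4193 and 4244 at 3 h and 3145 and 2445 at 6 h (log2 change -0.60 ± 0.12 SE, adjusted p = 0.0306). These are 2 of 19 tetraspanin and surface genes tested, beside 0.553% of all genes tested that fell. Cxcl12, the chemokine that binds CXCR4, read 2479 and 2846 at 3 h and 1696 and 1772 at 6 h (log2 change -0.61 ± 0.11 SE, adjusted p = 0.0161), and Fstl1, a secreted glycoprotein that modulates BMP signalling, read 2784 and 2630.5 at 3 h and 1612 and 1691 at 6 h (log2 change -0.71 ± 0.12 SE, adjusted p = 0.0101). Of these 5 genes, Cxcl12 and Fstl1 were called lower again at 12 h against 6 h, with Cxcl12 at 856 and 828 and Fstl1 at 785 and 949. Capg, a capping protein of actin filaments, read 598 and 632 at 3 h and 371 and 342 at 6 h (log2 change -0.77 ± 0.14 SE, adjusted p = 0.0189), Brip1os, an antisense transcript, read 908 and 988 at 3 h and 565 and 555 at 6 h (log2 change -0.75 ± 0.12 SE, adjusted p = 0.0101), and Pgam1, a glycolytic mutase, read 2723 and 2688 at 3 h and 1858 and 1929.5 at 6 h (log2 change -0.51 ± 0.10 SE, adjusted p = 0.0276). Outside the naming rule, S100a4 (468 and 502 at 3 h and 240.4 and 255 at 6 h, -0.95, adjusted p = 0.00546), Gpx8 (557 and 509 at 3 h and 278 and 281 at 6 h, -0.91, adjusted p = 0.0097), Lmnb1 (-1.01, adjusted p = 0.00757) and Adgra3 (-0.62, adjusted p = 0.0356) completed the set with Mmp11. Gstm1 and Cxcl12 lost the call without either 3 h array or 6 h replicate 1 (adjusted p between 0.0564 and 0.175). Cd24a, S100a4 and Lmnb1 lost the call without 3 h replicate 2 (adjusted p between 0.0681 and 0.097). Tm4sf1 lost the call without either 0 h array, either 3 h array or 6 h replicate 2 (adjusted p between 0.0681 and 0.179). Fstl1 and Brip1os lost the call without either 3 h array (adjusted p between 0.062 and 0.124). Capg lost the call without either 3 h array or either 6 h array (adjusted p between 0.0502 and 0.151). Pgam1 lost the call without either 0 h array, either 3 h array or 6 h replicate 1 (adjusted p between 0.0642 and 0.194). Gpx8 lost the call without 3 h replicate 1 (adjusted p = 0.109). Adgra3 lost the call without either 0 h array, either 3 h array or either 6 h array (adjusted p between 0.0598 and 0.218).

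Among the genes that rose, targets of ATF4 and CHOP were the most numerous in any list. Of 25 tested, 9 rose (Trib3, Asns, Ero1a, Vegfa, Ndrg1, Gadd45a, Chac1, Slc3a2 and Ddit3), none fell and 16 were not called. The median log2 change was 0.48 against 0.01 over all genes, of which 0.565% rose and 0.553% fell. Both 6 h arrays lay above both 3 h arrays for 18 of the 25 (72%, against 22.9% of all genes tested). The list was chosen with earlier results of these data known, so this count is no independent evidence of its direction. When one 3 h or 6 h array was left out, 5 to 10 members rose and none fell.

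Promoters of 4 genes that rose hold the composite element TGATGNAA (searched on both strands) within 250 bases of the start site: Asns, Chac1, Pck2 and Slc7a11. That is 4 of 39 (10.3%), against none of 38 fallers, 2.28% of tested genes and 3.45% of all promoters. They are shown because they are the genes that rose with this element in the window; Asns and Slc7a11 are in the amino acid lists, and Chac1 and Pck2 are not. They lie at chr6:7693210-7693459 (minus strand) for Asns, chr2:119350992-119351241 (plus strand) for Chac1, chr14:55540016-55540265 (plus strand) for Pck2 and chr3:50443614-50443863 (minus strand) for Slc7a11 (RefSeq, GRCm38.p6), each written 5′ to 3′ along the gene with the element, or its reverse complement, in capitals.
Asns: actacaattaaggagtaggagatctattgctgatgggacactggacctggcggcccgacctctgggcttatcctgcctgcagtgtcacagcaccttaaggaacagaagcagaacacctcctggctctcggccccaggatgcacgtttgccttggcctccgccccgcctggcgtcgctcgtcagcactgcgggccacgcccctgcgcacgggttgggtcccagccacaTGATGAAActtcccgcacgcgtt
Chac1: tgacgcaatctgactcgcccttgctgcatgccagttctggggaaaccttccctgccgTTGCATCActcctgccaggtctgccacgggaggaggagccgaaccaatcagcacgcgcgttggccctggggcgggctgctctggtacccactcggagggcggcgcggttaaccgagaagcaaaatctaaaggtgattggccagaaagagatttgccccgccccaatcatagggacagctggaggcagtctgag
Pck2: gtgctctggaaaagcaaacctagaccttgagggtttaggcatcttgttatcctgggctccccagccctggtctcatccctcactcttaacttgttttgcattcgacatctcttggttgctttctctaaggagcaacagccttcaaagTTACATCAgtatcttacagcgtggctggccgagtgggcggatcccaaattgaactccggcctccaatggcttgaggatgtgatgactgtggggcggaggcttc
Slc7a11: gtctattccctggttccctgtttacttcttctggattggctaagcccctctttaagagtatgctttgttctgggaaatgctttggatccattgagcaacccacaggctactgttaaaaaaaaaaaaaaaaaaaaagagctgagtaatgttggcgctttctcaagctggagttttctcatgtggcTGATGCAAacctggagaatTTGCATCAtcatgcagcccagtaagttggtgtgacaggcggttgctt
In Asns the element lies 23 bases before the start site. Slc7a11 has a copy on each strand, the first of them beginning 66 bases before the start. Chac1 and Pck2 carry it on the other strand, 193 and 103 bases before the start.

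Trib3, a pseudokinase induced by ATF4 and CHOP, rose the most of the tested genes in the list of ATF4 and CHOP targets. It read 675 and 685 at 3 h and 1952 and 1786 at 6 h (probe set 1426065_a_at, log2 change 1.45 ± 0.11 SE, adjusted p = 6.18e-05), after 206 and 211 at 0 h and before 3075 and 3261 at 12 h. Asns, the enzyme that makes asparagine, read 1003 and 933 at 3 h and 2354 and 2301 at 6 h (probe set 1451095_at, log2 change 1.26 ± 0.11 SE, adjusted p = 9.85e-05). It had risen little by 3 h, from 657 and 723 at 0 h, and reached 4566 and 4334 at 12 h. Chac1, which degrades glutathione, was bright early: it read 3162 and 3107 at 3 h and 5624 and 4381 at 6 h (log2 change 0.66 ± 0.13 SE, adjusted p = 0.0253) after 305 and 279.7 at 0 h, and at 12 h it read 4550.3 and 4173, so most of its rise came before 3 h. Ddit3 (CHOP) itself read 4716 and 4605 at 3 h and 6739 and 7085 at 6 h (log2 change 0.57 ± 0.11 SE, adjusted p = 0.0279). Atf4 read 13118 and 11887 at 3 h and 13556 and 12138 at 6 h, and its arrays of 3 h and 6 h overlapped (log2 change 0.04 ± 0.11 SE, adjusted p = 0.919) after 3023 and 3038 at 0 h. Ddit4, Ppp1r15a and Herpud1, further stress genes, were not called (-0.12, adjusted p = 0.716; 0.38, adjusted p = 0.316; 0.65, adjusted p = 0.0605). The calls of Trib3 and Asns held with each of the 8 arrays left out in turn. Chac1 lost the call without either 0 h array, either 3 h array or 6 h replicate 1 (adjusted p between 0.052 and 0.156). Ddit3 lost the call without either 0 h array, either 3 h array or either 6 h array (adjusted p between 0.0536 and 0.185).

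Ero1a, Vegfa and Ndrg1 are shared between the ATF4 list and the hypoxia and glycolysis list. Ero1a, the oxidase that drives disulfide formation in the endoplasmic reticulum, read 301 and 319 at 3 h and 775 and 709 at 6 h after 226 and 300.3 at 0 h (log2 change 1.24 ± 0.15 SE, adjusted p = 0.00163). Vegfa, the endothelial growth factor, read 670.0 and 494 at 3 h and 1421 and 1204 at 6 h (log2 change 1.17 ± 0.16 SE, adjusted p = 0.0033). Ndrg1, a stress-induced growth regulator, read 1326 and 1453 at 3 h and 2909.7 and 2643 at 6 h (log2 change 0.99 ± 0.13 SE, adjusted p = 0.00217). The probe sets of Vegfa and Ndrg1 can bind several transcripts. For Ero1a, Vegfa and Ndrg1 both 6 h arrays were above both 3 h arrays by a wide margin. The hypoxia and glycolysis list as a whole had a median of 0.00. Of its 29 members, these 3 were higher and Pgam1 lower, against 0.565% and 0.553% of all genes tested. Its glycolytic members Ldha (-0.22, adjusted p = 0.434), Pgk1 (-0.38, adjusted p = 0.425) and Slc2a1 (-0.14, adjusted p = 0.761), chosen after their values were seen, were not called. Ero1a was also the only one of 28 chaperone and folding genes of the endoplasmic reticulum to be called (median -0.04), and Hspa5 (0.36, adjusted p = 0.227) and Xbp1 (0.36, adjusted p = 0.207) were not. The calls of Ero1a, Vegfa and Ndrg1 held with each of the 8 arrays left out in turn.

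Amino acid supply genes were the next group. Of 14 amino acid transporters, 4 rose and none fell (median 0.17), against 0.565% and 0.553% of all genes tested. Slc7a5 (LAT1), the exchanger of large neutral amino acids, read 647 and 518 at 3 h and 1183 and 1226 at 6 h (log2 change 1.05 ± 0.15 SE, adjusted p = 0.0033), and its heavy chain partner Slc3a2 read 3711 and 3527 at 3 h and 5741 and 5480.5 at 6 h (log2 change 0.63 ± 0.12 SE, adjusted p = 0.0194). Slc7a11 (xCT), the cystine importer that shares the same heavy chain, was dim: it read 42.2 and 52.0 at 3 h and 159.8 and 182 at 6 h (log2 change 1.70 ± 0.37 SE, adjusted p = 0.0464) and 369 and 330.5 at 12 h. Slc1a4, a carrier of alanine, serine and cysteine, read 207 and 270.2 at 3 h and 451 and 440.4 at 6 h (log2 change 0.89 ± 0.17 SE, adjusted p = 0.0276; 0.51, adjusted p = 0.275 without probe sets that can bind several transcripts). Slc38a2 (-0.29, adjusted p = 0.407) and Slc7a1 (0.78, adjusted p = 0.371) were not called and were chosen after their values were seen. Only 1 to 2 transporters rose when a 3 h or 6 h array was left out. The call of Slc7a5 held with each of the 8 arrays left out in turn. Slc3a2 lost the call without either 3 h array or 6 h replicate 1 (adjusted p between 0.0781 and 0.165). Slc7a11 lost the call without either 3 h array, either 6 h array or either 12 h array (adjusted p between 0.0713 and 0.219). Slc1a4 lost the call without either 0 h array, 3 h replicate 1 or either 6 h array (adjusted p between 0.052 and 0.218).

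Of 18 genes of amino acid synthesis and one-carbon metabolism, Asns, Mthfd2 and Psph rose and none fell (median 0.16). Over all genes tested, 0.565% rose and 0.553% fell. Mthfd2, the mitochondrial folate dehydrogenase, read 1212 and 1016 at 3 h and 2260.4 and 1809 at 6 h (log2 change 0.86 ± 0.15 SE, adjusted p = 0.0137), and Psph, the last enzyme of serine synthesis, read 1119 and 1099 at 3 h and 1933 and 1697 at 6 h (log2 change 0.70 ± 0.13 SE, adjusted p = 0.0181). The enzymes ahead of Psph in that pathway, Phgdh (0.15, adjusted p = 0.58) and Psat1 (0.10, adjusted p = 0.724), were not called, and Cth, which makes cysteine from cystathionine, had a large uncalled value (1.30, adjusted p = 0.0623); these 3 were chosen after their values were seen. Pck2, the mitochondrial form of phosphoenolpyruvate carboxykinase, read 437 and 496 at 3 h and 838 and 780.2 at 6 h (log2 change 0.79 ± 0.13 SE, adjusted p = 0.0106), yet a second probe set of Pck2 gave -0.20. None of 21 cytosolic tRNA synthetase genes was called, although their median was 0.24. In 14 of them both 6 h arrays lay above both 3 h arrays (66.7%, against 22.9% of all genes tested). The synthetase list was chosen with earlier results of these data known, so its share is no independent evidence of a direction. The number of synthesis genes that rose was 1 to 3 with one 3 h or 6 h array left out. Mthfd2 lost the call without 3 h replicate 2 or 6 h replicate 1 (adjusted p between 0.0864 and 0.148). Psph lost the call without either 3 h array or 6 h replicate 1 (adjusted p between 0.0915 and 0.142). Pck2 lost the call without 3 h replicate 1 or 6 h replicate 1 (adjusted p between 0.0625 and 0.13).

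**Figure D4:**
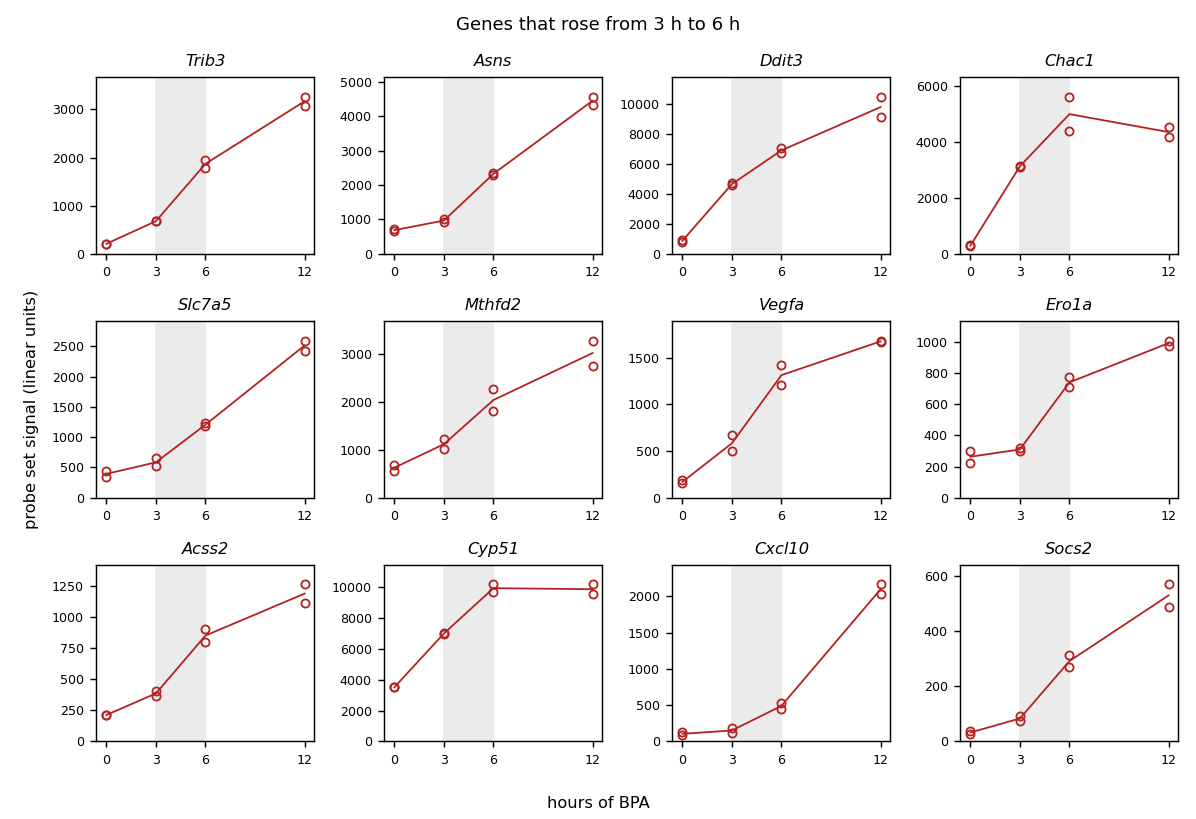
Probe set signal (y axes, linear, starting at 0) against hours of BPA (x axes) for 12 genes that rose from 3 h to 6 h: ATF4 and amino acid genes in the upper rows, lipid and cytokine genes in the lowest. Circles are single arrays, lines join the means and the grey band marks the step; Asns, Ero1a and Cxcl10 had moved little by 3 h, whereas Ddit3 and Chac1 were already high.

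Lipid synthesis gave small rises. Of 39 genes tested in the cholesterol and fatty acid list, 4 rose and none fell (median 0.33), against 0.565% and 0.553% of all genes tested. Both 6 h arrays lay above both 3 h arrays for 26 of the 39 (66.7%, against 22.9% of all genes tested). The lipid list, too, was chosen with earlier results of these data known, so these counts are no independent evidence. Acss2, which makes acetyl-CoA from acetate in the cytosol and nucleus, read 407 and 365 at 3 h and 904 and 801 at 6 h (log2 change 1.13 ± 0.14 SE, adjusted p = 0.00163). Fdft1 (squalene synthase) read 3535 and 3362 at 3 h and 5082 and 4976 at 6 h (log2 change 0.54 ± 0.10 SE, adjusted p = 0.0184), Cyp51 (lanosterol demethylase) read 7012 and 6995 at 3 h and 9691 and 10195 at 6 h (log2 change 0.50 ± 0.10 SE, adjusted p = 0.0279) and Lss (lanosterol synthase) read 2294 and 2208 at 3 h and 3464 and 3292 at 6 h (log2 change 0.58 ± 0.12 SE, adjusted p = 0.0326). The 6 h arrays of all 4 stood clear of the 3 h arrays; the probe sets of Fdft1 and Lss can bind several transcripts, and another probe set of Fdft1 went the other way (-0.28). Hmgcs1 (0.36, adjusted p = 0.214), Sqle (0.21, adjusted p = 0.401), Fasn (0.37, adjusted p = 0.132) and Abca1, an exporter of cholesterol (-1.08, adjusted p = 0.0998), were not called and were chosen after their values were seen. Outside that list, Pcyt2, an enzyme of the phosphatidylethanolamine pathway, read 1471 and 1457 at 3 h and 2606 and 2356 at 6 h (log2 change 0.76 ± 0.13 SE, adjusted p = 0.0121), and Lpin1, a phosphatidate phosphatase outside the naming rule, read 1117 and 1456 at 3 h and 1968 and 2141 at 6 h (log2 change 0.68 ± 0.14 SE, adjusted p = 0.0306). With one 3 h or 6 h array left out, 1 to 6 members of the list rose. The call of Acss2 held with each of the 8 arrays left out in turn. Fdft1 lost the call without either 0 h array, either 3 h array or 6 h replicate 1 (adjusted p between 0.0516 and 0.169). Cyp51 and Lss lost the call without either 0 h array, either 3 h array or either 6 h array (adjusted p between 0.0502 and 0.206). Pcyt2 lost the call without either 3 h array or 6 h replicate 1 (adjusted p between 0.0625 and 0.102). Lpin1 lost the call without either 0 h array, 3 h replicate 1 or either 6 h array (adjusted p between 0.0584 and 0.279).

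Chemokine and NF-kB target genes were mixed. Of 24 tested, Cxcl10 and Nfkbia rose, Cxcl12 fell and 21 were not called, with a median of 0.29. The shares over all genes tested were 0.565% higher and 0.553% lower. Cxcl10, a chemokine induced by interferon and NF-kB, read 191 and 109.5 at 3 h and 448 and 532 at 6 h (log2 change 1.70 ± 0.24 SE, adjusted p = 0.00372). Its 0 h signals were 81.8 and 126 with no call at 3 h against 0 h, and it went on to 2029 and 2168 at 12 h. Ccl2 read 942 and 801 at 3 h and 1213 and 1220.5 at 6 h and Ccl7 read 331 and 383 at 3 h and 785 and 715 at 6 h; for both chemokines the 6 h arrays were the higher ones, without a call (0.48, adjusted p = 0.119; 1.05, adjusted p = 0.095). Rel, an NF-kB subunit chosen after its values were seen, was just outside the threshold (0.69, adjusted p = 0.0508), and Ptgs2 was at 0.21, adjusted p = 0.64. No gene of the 26 in the interferon and STAT list was called (median 0.07). Of 5 macrophage markers, Cd68 read 303.5 to 387 over the 8 arrays, and Adgre1, Csf1r, Lyz2 and Ptprc stayed at or below 180.3. Their summed signal was 604.8 to 645.6 at 3 h and 547.5 to 584.4 at 6 h, and their part in the cytokine values was not tested. Of the list, 1 to 2 members rose with one 3 h or 6 h array left out. The call of Cxcl10 held with each of the 8 arrays left out in turn. Cxcl12 lost the call without either 3 h array or 6 h replicate 1 (adjusted p between 0.0564 and 0.175).

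Genes of growth arrest and DNA damage gave a few calls. Of 24 p53 targets, Plk3 and Gadd45a rose, Sesn1 fell and the median was 0.06. The shares over all genes tested were 0.565% higher and 0.553% lower. Plk3, a stress-induced polo-like kinase, read 152 and 148 at 3 h and 334 and 361 at 6 h (log2 change 1.17 ± 0.20 SE, adjusted p = 0.0121), and Gadd45a, a stress sensor that also belongs to the ATF4 list, read 1019 and 948 at 3 h and 1568 and 1743 at 6 h (log2 change 0.75 ± 0.12 SE, adjusted p = 0.00996). The standard p53 targets Cdkn1a (0.07, adjusted p = 0.867) and Mdm2 (0.07, adjusted p = 0.835) were not called. Gadd45b, a relative of Gadd45a induced by NF-kB and TGF-beta, read 3883 and 4110.5 at 3 h and 6706 and 5457 at 6 h (log2 change 0.60 ± 0.12 SE, adjusted p = 0.0253), but the mean over its probe sets was 0.04. Odc1, the first enzyme of polyamine synthesis, read 2762 and 2969.9 at 3 h and 4658 and 4771 at 6 h (log2 change 0.72 ± 0.11 SE, adjusted p = 0.00502) and was the only one of 17 genes in the MYC and polyamine list to be called; its probe set mean was 0.43. Ribosome biogenesis, often linked to MYC, had no call among 50 genes (median 0.15, with 40 values above 0). Over all genes tested, 4517 of 8675 values were above 0. Plk3 lost the call without either 3 h array or either 6 h array (adjusted p between 0.0598 and 0.097). Gadd45a lost the call without either 3 h array (adjusted p between 0.062 and 0.103). Gadd45b lost the call without either 0 h array, either 3 h array or 6 h replicate 1 (adjusted p between 0.0584 and 0.204). Odc1 lost the call without 3 h replicate 1 (adjusted p = 0.0832).

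The other genes that rose belong to no single list. H1f2, a linker histone, read 2366 and 2017 at 3 h and 3937 and 4765 at 6 h (log2 change 0.98 ± 0.12 SE, adjusted p = 0.00188). Its probe set can bind several transcripts, and the log2 change was smaller on the mean over its probe sets (0.74, adjusted p = 0.109). It was 0.28 (adjusted p = 0.873) where all probe sets that can bind several transcripts were left out. Another tested probe set of H1f2, also of that kind, gave 0.96 (adjusted p = 0.0396, limma with Benjamini-Hochberg adjustment over probe sets). Tsc22d3 (GILZ), a leucine zipper protein induced by glucocorticoids, read 462 and 390.1 at 3 h and 791 and 759.8 at 6 h (log2 change 0.86 ± 0.15 SE, adjusted p = 0.0116; 0.57, adjusted p = 0.132 on its probe set mean). Slc20a1, a sodium-phosphate carrier, read 2187 and 1973 at 3 h and 3567 and 3249.6 at 6 h (log2 change 0.71 ± 0.13 SE, adjusted p = 0.0161), but a second probe set gave -0.26. Zfp346, a zinc finger protein that binds double-stranded RNA, read 739 and 744 at 3 h and 1256 and 1366 at 6 h (log2 change 0.82 ± 0.12 SE, adjusted p = 0.00495) and was the only one of 147 Zfp genes to be called. Ndufaf4, an assembly factor of respiratory complex I (0.70, adjusted p = 0.0382), was the only one of 77 respiratory chain genes, and its probe set mean was 0.25. Over all genes tested 1.12% were called, and single calls in lists of this size lie near that share. The call of H1f2 held with each of the 8 arrays left out in turn. Tsc22d3 lost the call without 3 h replicate 2 or 6 h replicate 1 (adjusted p between 0.0625 and 0.142). Slc20a1 lost the call without either 3 h array or 6 h replicate 1 (adjusted p between 0.0741 and 0.151). Zfp346 lost the call without 3 h replicate 1 (adjusted p = 0.0568). Ndufaf4 lost the call without either 0 h array, either 3 h array, 6 h replicate 2 or 12 h replicate 1 (adjusted p between 0.0505 and 0.27).

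Outside the naming rule, and given because they were called, rises were also found for Fam241b (1.10), H2aw (1.14), Nos3 (endothelial nitric oxide synthase, 0.96), Stbd1 (0.83), Hint3 (0.75), 2810004N23Rik (0.68), Klf5 (0.65), Cyb5r1 (0.64), Srfbp1 (0.63), Zcchc7 (0.62), Pim3 (0.62), Mtmr3 (0.62) and Rsrc2 (0.49) on the log2 scale. A second probe set of Klf5 moved the other way (-0.39), and the probe set mean of Pim3 was 0.14. Plagl1, an imprinted zinc finger gene, and Grhl2, an epithelial transcription factor, were the only risers called lower at 3 h against 0 h: Plagl1 read 244 and 239.8 at 0 h, 142 and 151 at 3 h and 282 and 276 at 6 h (0.89, adjusted p = 0.0191). Grhl2 read 55.1 and 113 at 0 h and then 26.7 and 28.8 at 3 h and 128 and 118 at 6 h (1.88, adjusted p = 0.0323). A second tested probe set of Grhl2 gave 0.07. For both genes the 3 h arrays enter the 2 comparisons with opposite sign, so a chance low reading at 3 h favours such a pattern. Sh3gl3 read 22.7 and 30.9 at 3 h and 152 and 92.3 at 6 h (1.88, adjusted p = 0.0306). Grhl2 and Sh3gl3 have the largest fitted changes among the called genes, but at signals close to the lower end of the tested genes. The probe set means were 0.29 for Plagl1 and 0.29 for Grhl2. Fam241b and Srfbp1 lost the call without either 3 h array or either 6 h array (adjusted p between 0.0543 and 0.151). H2aw lost the call without 3 h replicate 1 or 6 h replicate 1 (adjusted p between 0.102 and 0.161). Nos3, Cyb5r1 and Pim3 lost the call without either 3 h array or 6 h replicate 1 (adjusted p between 0.0625 and 0.164). Stbd1, 2810004N23Rik and Rsrc2 lost the call without either 0 h array, either 3 h array or either 6 h array (adjusted p between 0.0584 and 0.258). Hint3 lost the call without either 0 h array, either 3 h array, either 6 h array or 12 h replicate 1 (adjusted p between 0.052 and 0.253). Klf5, Zcchc7 and Mtmr3 lost the call without either 0 h array, either 3 h array or 6 h replicate 1 (adjusted p between 0.0584 and 0.218). Plagl1 and Grhl2 lost the call without either 3 h array or either 6 h array (adjusted p between 0.0521 and 0.161). Sh3gl3 lost the call without either 0 h array, either 3 h array or 6 h replicate 1 (adjusted p between 0.0584 and 0.174).

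**Figure D5:**
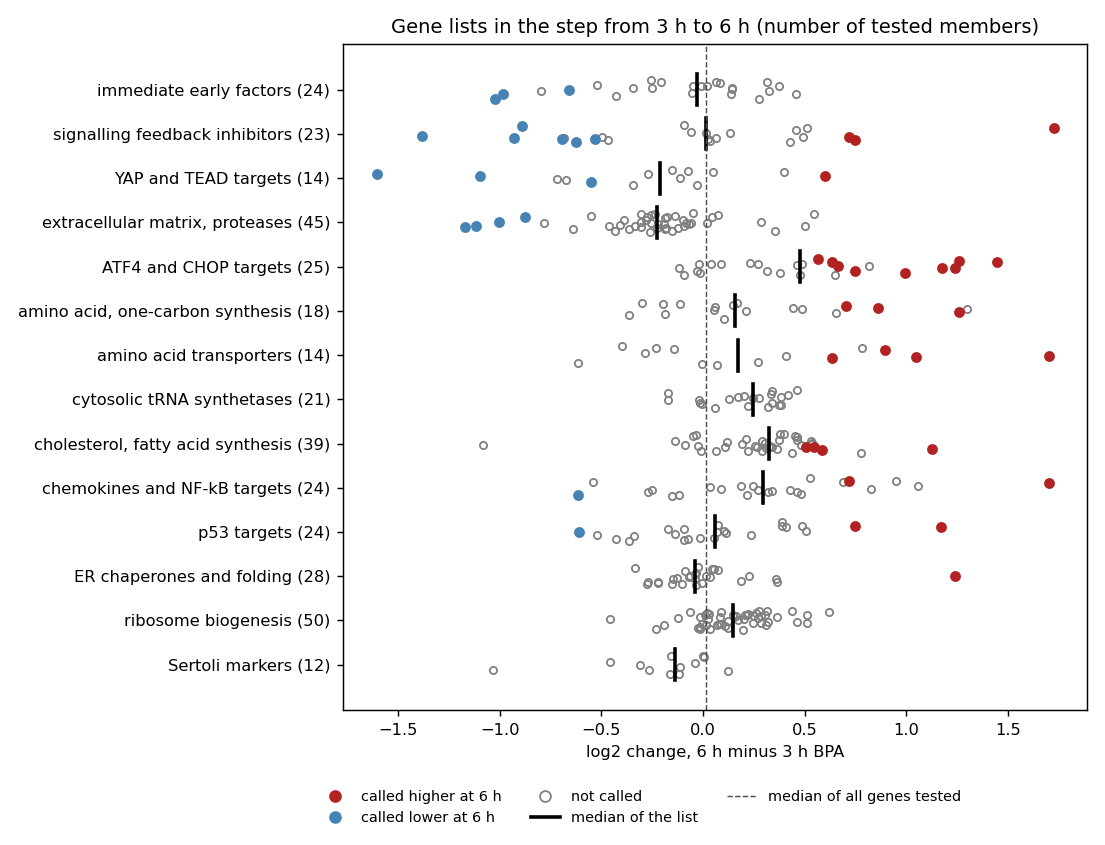
Log2 change from 3 h to 6 h (x axis) of each tested member of 14 gene lists (rows, number of members in brackets). Filled red and blue points were called higher and lower, open points were not called, black bars are list medians and the dashed line is the median of all genes tested (0.01); most red points are in the ATF4, amino acid and lipid lists and most blue points in the first 4 lists.

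Of 48 lists examined, 25 had no called member, with medians between -0.49 and 0.29, and 43 of the 97 called genes are in none of the lists. Among those without a call were the heat shock proteins (27 tested, median 0.04), translation initiation factors and eIF2 kinases (29, 0.06), degradation and translocation at the endoplasmic reticulum (30, 0.01), the proteasome (46, 0.00), cytosolic ribosomal proteins (46, 0.01) and G1 cyclins and their inhibitors (28, -0.07). The 4 EGF receptor ligands tested were not called either, with Hbegf at -0.14, adjusted p = 0.724. Rhob was the only called gene of 39 actin and adhesion genes (median -0.11), and Fstl1 the only one of 34 TGF-beta and BMP genes (median -0.20). Gene by gene, Hmox1, the heme oxygenase of the NRF2 response, was at 0.77, adjusted p = 0.0605, Mt1, a metallothionein, at 0.23, adjusted p = 0.471, Ccnd1, the G1 cyclin D1, at -0.44, adjusted p = 0.165, and Zfp36, which triggers mRNA decay, at -0.68, adjusted p = 0.101; none was called.

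Where the genes of the step stood at the end can be read from 12 h against 0 h, whose means use none of the 3 h or 6 h arrays. The spread of each gene was estimated from all 8 arrays, however. A gene with a small spread is thus more readily called in both comparisons, and the shares below are not independent of the step. Of the 49 genes that rose, 46 (93.9%) were called higher at 12 h than at 0 h, and they are 2.54% of the 1810 genes so called; the background is 20.9% of genes tested. Grhl2, Sh3gl3 and Socs3 were the exceptions. Of the 48 that fell, 40 (83.3%) were called lower, which is 2.63% of 1521, beside a background of 17.5%. Errfi1 and Nr4a1 were called higher than at 0 h instead, and Ankrd1, Ccn1, Dusp6, Ier5, Klf6 and Spry2 were not called. All 8 of these are early genes, and the other 5 early genes (Adamts1, Ccn2, Dusp10, Dusp16 and Thbs1) ended below their 0 h level. The share for the genes that fell was 66.7% without 6 h replicate 1 and 65.3% without 6 h replicate 2.

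Side by side with the next interval, whose 6 h arrays it shares, 14 of the 49 genes that rose were called higher again at 12 h against 6 h, among them Trib3 (0.76 (adjusted p = 0.00276)), Asns (0.93 (adjusted p = 0.000597)), Slc7a5 (1.05 (adjusted p = 0.00207)) and Cxcl10 (2.08 (adjusted p = 0.000554)). Lpin1 was the one that fell (-0.74 (adjusted p = 0.00866)), and 34 were not called. Of the 48 genes that fell, 22 fell again, among them Ccn2 (-1.84 (adjusted p = 1.14e-05)), Thbs1 (-2.05 (adjusted p = 5.66e-07)) and Mmp11 (-0.83 (adjusted p = 0.00879)), none rose and 26 were not called. Over all genes tested, 0.922% were called higher and 3.85% lower in that interval. Sgk1 (0.12 (adjusted p = 0.773)) and Dusp10 (-0.10 (adjusted p = 0.768)), which follow Ccn2 in size of fall from 3 h to 6 h, were not called afterwards.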

How the data were processed

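For each probe set the authors deposited a linear signal intensity on each array, already brought to a common mean; the software behind it is not given in the sources analysed. Times and array numbers come from the sample titles. Symbols came from the platform annotation. Of 20380 probe sets with a single symbol, 20351 took the RefSeq name (GRCm38.p6) of their Entrez identifier, whether or not it differed. The log2 of the signal plus 7.9 (the 10th percentile of all values) was taken, and genes above the 30th percentile of mean log2 signal were tested. A mean for every time was estimated from the 8 arrays together, using limma 3.58.1 under R 4.3.3 (eBayes with an intensity trend, two-sided, Benjamini-Hochberg over 8675 genes, 4 residual degrees of freedom), after the script had been tested on simulated data. Errors (±) are standard errors of the log2 change; a fold is on the log2(signal + 7.9) scale and understates changes of dim genes. The number of arrays limits the precision.

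The members, the 48 lists and the motifs were chosen with earlier results of these data known. The naming rule took, from called genes brighter than the median, the 20 largest rises and the 20 largest falls, up to 5 called members per list, all immediate early factors and a fixed set of stress, lipid, p53 and cytokine genes. Areg and Insig1 of that set had no tested probe set under these rules, and some of its other genes are not reported here. Alternatives were 2 other scalings, 2 other offsets, 2 other filters, no trend, the 4 arrays alone, the array number as a block, 2 other choices of probe set and each array left out. Probe sets of 691 with several symbols and 1555 without one were left out.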

Additional observations from a re-analysis of the deposited data

How the results depend on the processing

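The count of 97 called genes (49 higher, 48 lower) was within 1.5 times of itself under quantile normalization, scaling to the same median, both other offsets, the filter at the 50th percentile and both other choices of probe set. It was 56 (26 higher, 30 lower) without a filter, 6 (3 and 3, all at least 2-fold) without the intensity trend and 61 (28 higher) from the 3 h and 6 h arrays alone. Leaving out one array gave 30 to 129 genes, 15 to 54 higher, 15 to 75 lower and 18 to 44 at least 2-fold. The share of falling genes called lower at 12 h against 0 h was 66.7% without the intensity trend and 65.3% to 85.7% with one array left out; for rising genes it was 86.7% to 100%. Where probe sets that can bind several transcripts were left out, Klf5 (-0.39), Pck2 (-0.20) and Slc20a1 (-0.26) changed sign. No gene had called probe sets in opposite directions, with or without the filter. The labels do not say what the array numbers mark. Deviations of equal numbers correlated at -0.01 to 0.12 between times, so the numbers were not taken as pairs, though a shared batch is not excluded; the replicate block gave 226 genes (107 higher, 119 lower). The cause of these shifts was not tested. Between 3 h and 6 h, 20 called genes kept the call with every single array left out. Errors are wide where signals are dim, such as 0.37 (SE) for Slc7a11.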

Other observations

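Other probe sets of the same genes widen the picture. Of the 97 called genes, 50 had a further tested probe set: 19 had one called in the same direction and 10 had one with the opposite sign. In a fit over 14126 probe sets, 24 genes were called only through a probe set other than the brightest. Herpud1, an ATF4-responsive gene of protein degradation at the endoplasmic reticulum, gave 0.96 (adjusted p = 0.00337) on such a probe set. Cebpg, a partner of ATF4, gave 1.07 (adjusted p = 0.0150) there against 0.27 on its brightest. Btg2, an antiproliferative early gene, gave -0.98 (adjusted p = 0.0197), and Klf3, a zinc finger repressor, gave -1.23 (adjusted p = 0.00637) against -0.23. Tob2, a relative of Btg2, gave -1.36 (adjusted p = 0.00611) on a probe set that can bind several transcripts. These are limma values with Benjamini-Hochberg adjustment over probe sets, and the genes were chosen after their values were seen.

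Both Sgk1 and Tsc22d3 are known as glucocorticoid-induced genes, and they parted in the step: Sgk1 fell (-1.50, adjusted p = 0.00163) while Tsc22d3 rose (0.86, adjusted p = 0.0116). Klf9, another such gene, fell (-0.71, adjusted p = 0.00996). Tsc22d3 and Klf9 lost the call on the mean of their probe sets. Sgk1, Tsc22d3 and Klf9 were set side by side after their values were seen, and no test of the group was made.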
